A study of Homo sapiens with 6 samples.

Results

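The 33 genes described here encode the machinery that carries proteins into mitochondria. They were chosen by name, as each gene of the deposited table whose symbol starts with TIMM or TOMM followed by a digit, together with GRPEL1, GRPEL2, HSPA9, PAM16, DNAJC19, PMPCA, PMPCB and CHCHD4, and they are 33 of the 17687 genes in that table. The study sequenced polyadenylated RNA of KHM-5M, a human cell line from an anaplastic thyroid cancer, in 3 groups of 2 libraries each. Control cells are those labelled as the control group, for which the study's qRT-PCR and ROS assays used PBS. SS cells received sodium selenite, and SS+NAC cells received sodium selenite together with N-acetylcysteine (NAC), a thiol antioxidant. No group received NAC alone. The labels do not state the dose or the duration of treatment of the sequenced cells. The number after SS in the library titles carries no unit. Total expected counts were 17645545 and 22016655 for control, 23493415 and 23810056 for SS, and 23682740 and 22617180 for SS+NAC. The study's methods call the 2 libraries of a group biological replicates, without saying how the cultures were kept apart, so the p-values below measure the spread between these libraries and nothing wider. These are bulk RNA libraries, in which fewer cells with a transcript and less of it per cell cannot be told apart.

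Most mitochondrial proteins are made in the cytosol and enter through the TOM complex of the outer membrane, where receptors recognise targeting signals and TOMM40 forms the channel. Precursors with a cleavable presequence then cross the inner membrane through the TIM23 complex, are drawn into the matrix by a motor built on the chaperone HSPA9, and are trimmed by the peptidase of PMPCA and PMPCB. Carrier proteins of the inner membrane are instead escorted by the small TIM chaperones to the TIM22 complex, and small cysteine-rich proteins of the intermembrane space are oxidised and retained by CHCHD4.

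The cell line was checked against marker genes in TPM, RSEM's level per transcript, corrected for length. Of the thyroid markers, PAX8 stood between 104 and 134 TPM and HHEX between 25.9 and 29.8 TPM over the 6 libraries, while TG, SLC5A5 and NKX2-1 were below 1 TPM in each and FOXE1 lay between 0.55 and 1.59 TPM. The thyroid list, most of it PAX8, summed to 164 and 155 TPM in control, 147 and 131 TPM in SS and 156 and 163 TPM in SS+NAC. The keratin KRT8 (977 to 1398 TPM) and the mesenchymal filament gene VIM (5744 to 6621 TPM) were abundant, and the epithelial cadherin CDH1 was at most 0.29 TPM. Leukocyte markers summed to at most 4.97 TPM and endothelial markers to at most 0.92 TPM. The fibroblast list summed to 229 and 227 TPM in control, 189 and 175 TPM in SS and 284 and 266 TPM in SS+NAC, nearly all of it COL1A1, with its partner chain COL1A2 at no more than 0.04 TPM. The epithelial list summed to 2076 and 2122 TPM in control, 2258 and 2503 TPM in SS and 2035 and 1715 TPM in SS+NAC. The mesenchymal list summed to 7080 and 7383 TPM in control, 7437 and 7322 TPM in SS and 7506 and 7631 TPM in SS+NAC, with its members differing in direction; VIM was highest in SS, and FN1, CDH2 and ZEB1 were lowest there. Whether these marker differences bear on the import genes was not tested.

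In control cells the import genes spanned a wide range of levels. The highest was TOMM6, a small subunit of the TOM complex, at 396 and 417 TPM, followed by the receptor TOMM22 at 336 and 381 TPM and by TOMM40 at 348 and 349 TPM. TOMM22 and TOMM40 could not be ordered, since their ranges overlapped. HSPA9 followed at 323 and 335 TPM and TOMM5 at 278 and 284 TPM. At the low end stood the nucleotide exchange factor GRPEL2 with a mean of 11.5 TPM (SD 0.728), then TIMM29 at 16.97 and 17.03 TPM and TIMM10B with a mean of 17.7 TPM (SD 0.969), and the ranges of TIMM29 and TIMM10B overlapped. TOMM20L, a relative of the receptor TOMM20, had 1 to 5 expected counts in each of the 6 libraries and at most 1.12 TPM. It failed the filter on low counts, so 32 of the 33 members were tested. In each of 5 paralogue pairs the mean control levels differed, TOMM40 standing at 348 TPM against 21.5 TPM for TOMM40L. TIMM23 was at 189 TPM against 22.4 TPM for TIMM23B, and TIMM17A at 83.0 TPM against 26.9 TPM for TIMM17B. GRPEL1 was at 40.3 TPM against 11.5 TPM for GRPEL2, and TIMM8A at 39.1 TPM against 59.6 TPM for TIMM8B. In each pair the ranges over the 2 control libraries did not overlap. Summed over the 33 members the level was 3602 and 3666 TPM in control, 3578 and 3797 TPM in SS and 3613 and 3424 TPM in SS+NAC.

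**Figure D1:**
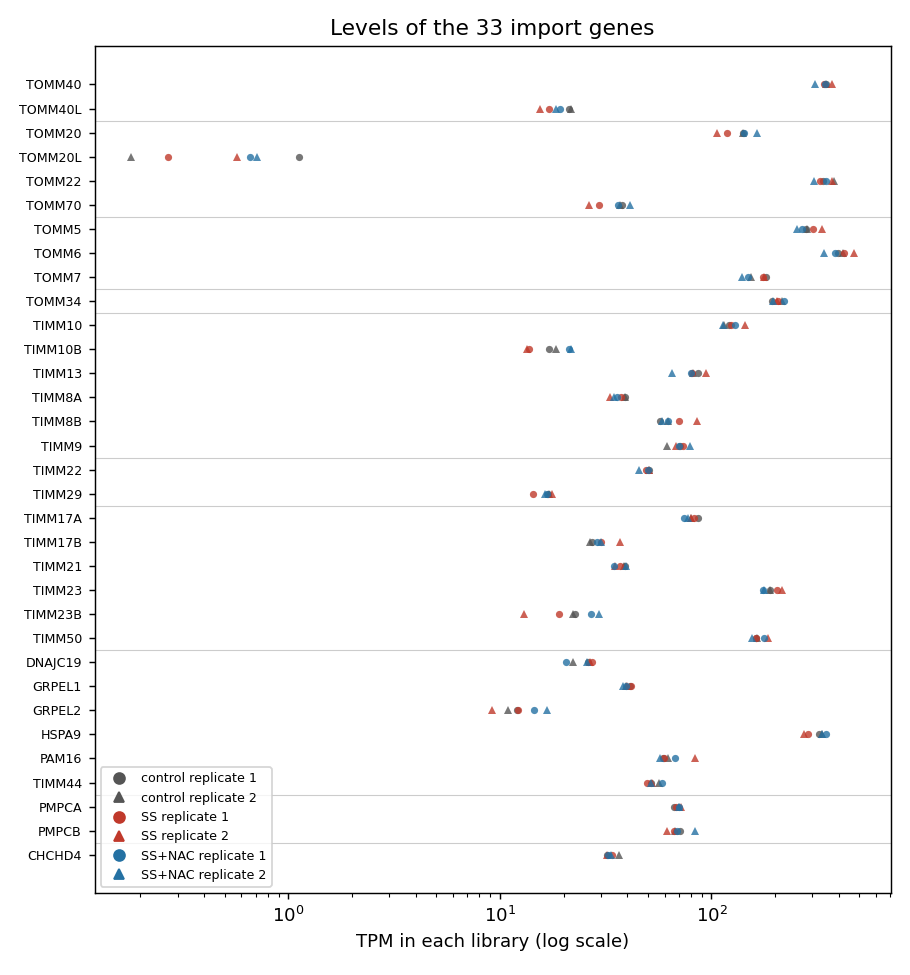
Level of each of the 33 import genes (vertical axis, ordered by role) in each of the 6 libraries, in TPM on a log axis; circles are replicate 1, triangles replicate 2, and colours mark control, SS and SS+NAC. TOMM6 has the highest mean in control (407 TPM), TOMM20L the lowest (0.65 TPM).

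The comparison of SS with control asked which genes differed after selenite. By edgeR 15 of the 32 tested members (46.9%) were called higher in SS by counts and 0 lower, where called means an adjusted p of at most 0.05 over all 14005 tested genes. Among all tested genes 18.6% were called higher and 21.4% lower. The 15 were TOMM40, TOMM5, TOMM6, TOMM7, TIMM8B, TIMM9, TIMM10, TIMM17A, TIMM17B, TIMM23, TIMM50, GRPEL1, DNAJC19, PAM16 and PMPCA. They came from the TOM channel and its small subunits, the small TIM chaperones, the TIM23 complex, the motor and the peptidase. The TOM receptors, the TIM22 complex and CHCHD4 had no call, a contrast that depends on the limit. By edgeR TIMM22 was at 0.26 (adjusted p = 0.0555) and CHCHD4 at 0.21 (adjusted p = 0.0869), beside 0.25 for the called TIMM17A. All 15 lay above 0 with TMM and with DESeq2 size factors, 7 of them lay below 0 after a correction for transcript length, and 1, TIMM17A, on the TPM scale. The count of 0 lower is from edgeR, with 0 members lower and 20 higher at an unadjusted p under 0.05, which 6829 of the 14005 tested genes reached in either direction; DESeq2 called 16 higher and 0 lower, against 15.1% and 17.9% of all tested genes. With the Bonferroni correction, which the study's methods name, edgeR called 0 members in either direction, and 220 of all tested genes. The median log2 fold change of the members was 0.25, against 0.003 over all tested genes, and 27 of the 32 were above 0. In 23 members the lower SS library exceeded the higher control library, as it did in 36.3% of all tested genes, and in 3 (TOMM20, TOMM70 and TOMM40L) both SS libraries were the lower ones, as in 36.9% of all tested genes.

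The SS libraries were unequal. Taking each gene's log2 CPM (counts scaled to library size) as its deviation from its mean over the 6 libraries, the median over the members was -0.08 and -0.04 in control, 0.12 in SS replicate 1, 0.29 in SS replicate 2, and -0.07 and -0.21 in SS+NAC. SS replicate 2 was the highest library and SS+NAC replicate 2 the lowest. In SS against control, fewer of all tested genes were called when any control or SS library was left out, and more without either SS+NAC library. Without SS replicate 2, only TIMM23 and TIMM8B were called higher than in control, and the log2 fold changes of the 15 ranged from 0.17 to 0.44. Without control replicate 1, 8 members were called, and without control replicate 2, 7 were. All 15 were called without SS replicate 1 or either SS+NAC library.

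**Figure D2:**
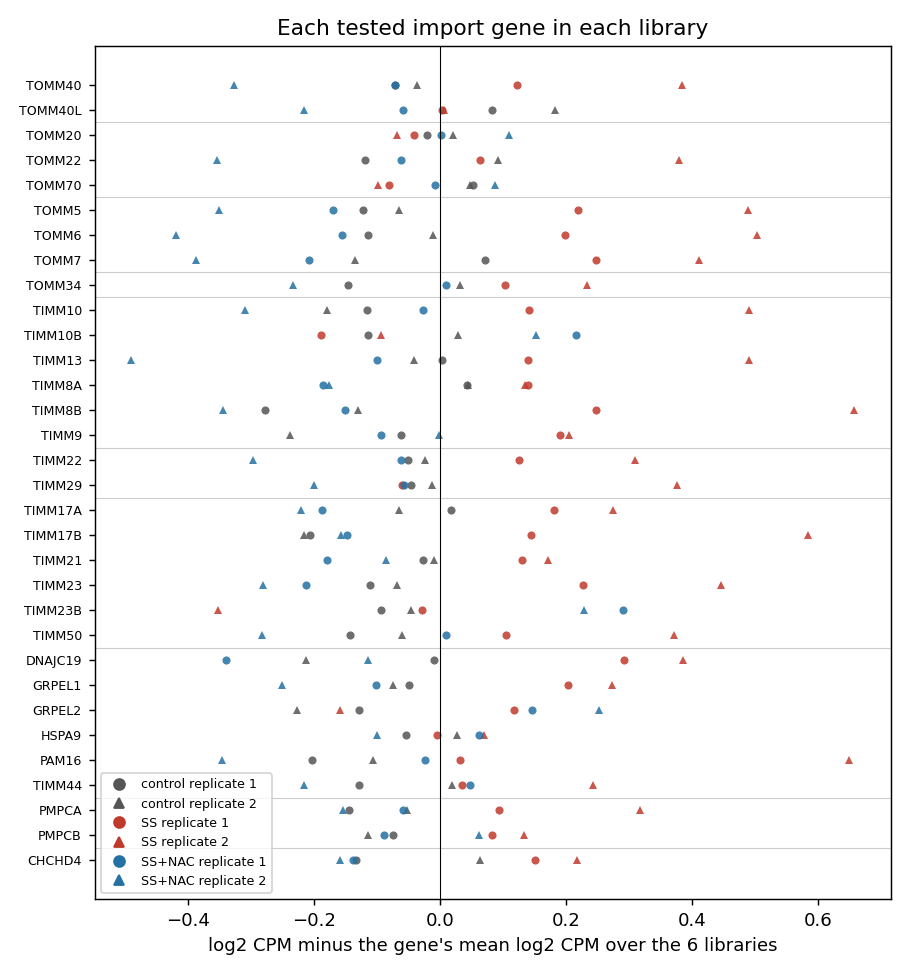
Log2 CPM of each tested import gene minus its mean over the 6 libraries (horizontal axis), by gene and role (vertical axis); circles are replicate 1, triangles replicate 2. Most SS points lie right of 0, with SS replicate 2 (median 0.29) farther out than SS replicate 1 (median 0.12).

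Import genes are short, and fold changes in SS followed transcript length. The median effective length, as implied by the deposited counts and FPKM, was 1685 bases for the tested members and 3034 bases for all tested genes with a length. Across genes, the Pearson correlation of log2 length with the log2 fold change of SS against control was -0.77 over the 32 members and -0.55 over 13935 genes; genes are not independent replicates, and all share the same 4 libraries. With all genes ranked by length, 19 members were in the shortest quartile, 9 in the next, 4 in the next and 0 in the longest. In the shortest quartile 13 of the 19 members were called higher in SS than in control, while 55.0% of all genes of that quartile were, and the median log2 fold change was 0.35 for these members and 0.36 for all genes. In the next quartile the median was 0.20 for the members and 0.10 for all genes. The shift was visible in each SS library: the shortest quartile of all genes had a median deviation of 0.18 in SS replicate 1 and 0.28 in SS replicate 2, the longest quartile -0.22 and -0.28. What produced this relation to length was not tested. With an offset that removes the trend with length, 2 members were called higher (GRPEL1 and GRPEL2) and 0 lower by edgeR, against 4.26% and 4.98% of all tested genes; 4 members had an unadjusted p under 0.05, as did 3536 of the 14005 tested genes, and DESeq2 was not run with this offset. With the offset and all 6 libraries the median of the members was 0.02, against 0.009 for all tested genes. Neither GRPEL1 nor GRPEL2 was called when control replicate 1, control replicate 2, SS replicate 1 or SS replicate 2 was left out, nor with the replicate block added, each of which gave a count of 0. Without SS+NAC replicate 1 or 2, TIMM8A was called lower with the offset (-0.28 and -0.29).

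**Figure D3:**
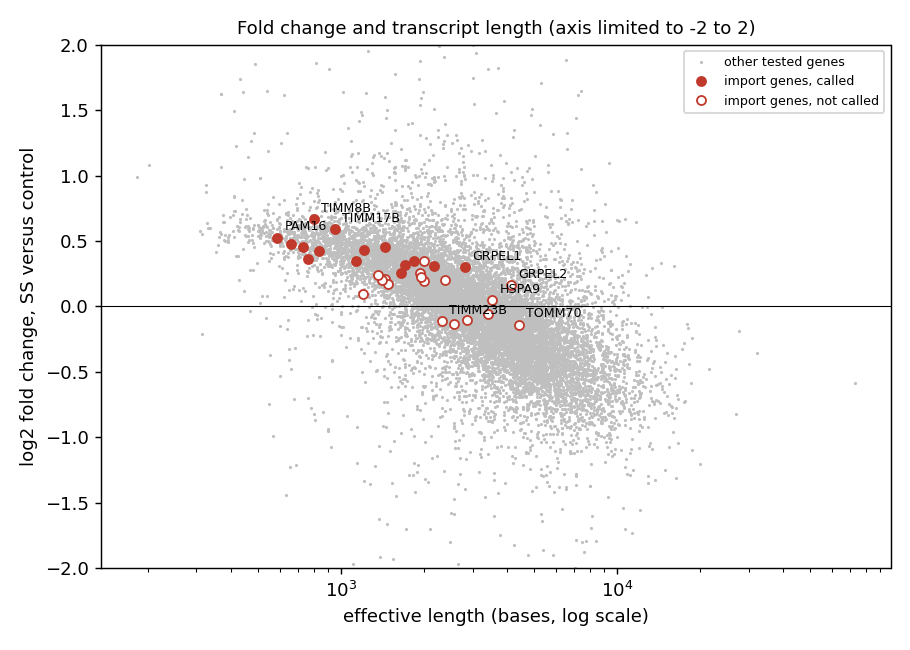
Log2 fold change of SS against control (vertical axis, on which the most extreme genes are not drawn) by effective transcript length in bases (log axis); grey points are other tested genes, red points import genes, filled where called. The called import genes sit on the short side, the correlation over the 32 being -0.77.

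The choice of scale moved the whole distribution. On log2(TPM + 1), the median of all tested genes was -0.20 for SS against control, -0.27 for SS against SS+NAC and 0.04 for SS+NAC against control. Relative to these shifts the members' medians were 0.18, 0.30 and -0.06. Of the 15 members called higher than in control by counts, 14 were above 0 on the TPM scale and all 15 were above the all-gene median. Tested with limma on that scale, TIMM8B and TIMM17B were called higher in SS than in control, with log2 fold changes of 0.37 and 0.30, and 5.08% of all tested genes were. HSPA9 (-0.23), TIMM10B (-0.36), TIMM23B (-0.48), TOMM20 (-0.33), TOMM40L (-0.38) and TOMM70 (-0.41) were called lower on that scale, as were 37.4% of all tested genes, although counts gave no call for them. Relative to the all-gene median these 6 lay between -0.29 (TIMM23B) and -0.04 (HSPA9). For SS against SS+NAC limma called 5 members higher (TIMM23, TIMM8B, TOMM5, TOMM6 and TOMM7) and 6 lower (GRPEL2, HSPA9, TIMM10B, TIMM23B, TOMM20 and TOMM70), against 4.46% and 46.3% of all tested genes.

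The comparison of SS with SS+NAC asked what NAC changed in cells that also received selenite. Here 22 of the 32 members (68.8%) were called higher in SS and 2 (6.25%), TIMM23B and TIMM10B, lower, against 19.6% and 23.1% of all tested genes. Of the 22, 5 lay below 0 with the length offset (TIMM9, TIMM10, TIMM8A, TIMM21 and PAM16) and 5 on the TPM scale (TIMM9, TIMM8A, TIMM21, PMPCA and TOMM34); the 2 lower members were below 0 on each scale. The median log2 fold change was 0.35, against -0.03 over all tested genes. In the shortest quartile 18 of the 19 members were called higher, against 54.5% of all genes of that quartile, with medians of 0.45 and 0.35. Both SS libraries lay above both SS+NAC libraries in 24 members, as in 32.3% of all tested genes, and below in 5, as in 38.1%. Of the libraries left out in turn, SS replicate 2 lowered the number of calls among all tested genes the most. Without SS replicate 2, 8 members were called higher and 1 lower; 20 to 24 of the 24 calls held without any other library. With the length offset GRPEL1 and TIMM13 were called higher and TIMM10B and TIMM23B lower, against 7.05% and 7.34% of all tested genes. With the replicate block added, 1 was called higher (GRPEL1) and 1 lower (TIMM23B). None of these 4 kept its call with the offset without SS replicate 2 (GRPEL1 0.38, TIMM13 0.29, TIMM10B -0.36 and TIMM23B -0.37). TIMM13 (0.45) and TIMM10B (-0.31) also lost theirs without control replicate 1 or 2. The same held for TIMM10B without SS replicate 1 (-0.27) and TIMM13 without SS+NAC replicate 2 (0.27). Without SS+NAC replicate 1, offset values of HSPA9, TIMM22, TIMM23, TIMM50, TOMM40 and TOMM6 lay between 0.23 and 0.35. Both comparisons above use the same SS libraries and are therefore not independent.

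The comparison of SS+NAC with control asked which genes differed when NAC was given with selenite. Without a group given NAC alone, effects of NAC itself and of selenite cannot be told apart here. By edgeR, with the libraries not paired, 0 members were called higher and 0 lower, while 1.36% and 0.657% of all tested genes were. At an unadjusted p under 0.05 there were 3 members higher (GRPEL2, TIMM23B and TIMM10B) and 4 lower (TOMM40L, TOMM7, TIMM8A and TIMM17A), among 2256 of the 14005 tested genes. DESeq2 called 0 members in either direction, against 1.26% of all tested genes higher and 0.964% lower. The median log2 fold change was -0.08, against -0.002 over all tested genes, and both SS+NAC libraries lay above both control libraries in 4 members and below in 14, as in 24.0% and 23.6% of all tested genes. More of all tested genes were called when SS+NAC replicate 1 was left out than with all 6 libraries. Without SS+NAC replicate 1, GRPEL2 was called higher (0.43) and TIMM13 (-0.47), TOMM40L (-0.35) and TOMM7 (-0.36) lower. With all 6 libraries, 0 members were called after the length offset either. Without SS+NAC replicate 1 the offset gave GRPEL2 higher (0.42) and TIMM13 (-0.48), TOMM40L (-0.37), TOMM22 (-0.34), TOMM6 (-0.30) and TOMM40 (-0.28) lower. This comparison shares the control and SS+NAC libraries with the others. A difference between the members' fold changes against control in SS and in SS+NAC is the SS against SS+NAC comparison itself.

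**Figure D4:**
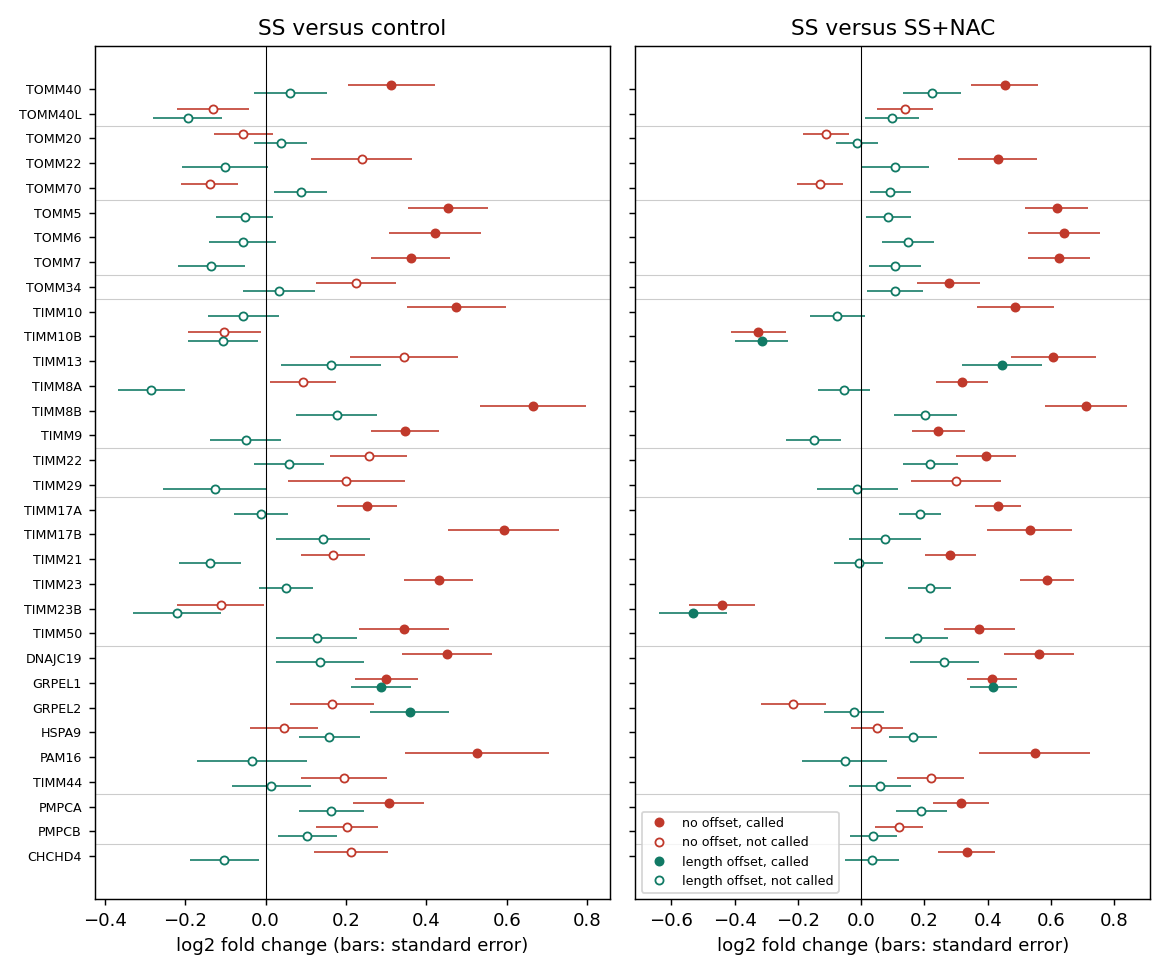
Log2 fold changes of the 32 tested import genes, by role, for SS against control and SS against SS+NAC; bars are standard errors, filled points were called, and green points carry the length offset. Without the offset 15 and 22 members were called higher; with it 2 and 2 were.

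TOMM40 (gene ID 10452), the channel of the outer membrane, stood at 299 and 307 CPM in control, 342 and 411 CPM in SS and 299 and 251 CPM in SS+NAC. Both SS libraries lay above the other 4. Against control its log2 fold change was 0.31 (SE 0.11, adjusted p = 0.0381), and against SS+NAC 0.45 (SE 0.11, adjusted p = 0.00654). The call against control was lost with the replicate block (0.31), with no filter (0.31), and without control replicate 1 (0.29), control replicate 2 (0.36) or SS replicate 2 (0.17). The call against SS+NAC was lost without SS replicate 2 (0.32). After the offset for length the values were 0.06 and 0.22, not called, and the latter was called without SS+NAC replicate 1 (0.35). Its rarer paralogue TOMM40L (84134) stood at 27.2 and 29.1 CPM in control, 25.7 and 25.8 CPM in SS and 24.6 and 22.1 CPM in SS+NAC. Here control was the highest group and the groups did not overlap. The log2 fold change of SS against control was -0.13 (SE 0.089, adjusted p = 0.271). The log2 fold change of SS+NAC against control was -0.27 (SE 0.090, adjusted p = 0.173), called without SS+NAC replicate 1 (-0.35). Reads of TOMM40L are less certain, since 19.1% of the 50-base words of its transcripts also occur in NR1I3, which overlaps it on the opposite strand, and the libraries are not stated to mark the strand.

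The small TOM subunits, which stabilise the channel complex, were all called higher in SS in both comparisons, where 18.6% (against control) and 19.6% (against SS+NAC) of all tested genes were. TOMM5 (401505) stood at 102 and 106 CPM in control, 130 and 156 CPM in SS and 98.9 and 87.2 CPM in SS+NAC. TOMM6 (100188893) stood at 166 and 178 CPM in control, 206 and 255 CPM in SS and 161 and 134 CPM in SS+NAC. TOMM7 (54543) stood at 68.7 and 59.5 CPM in control, 77.6 and 86.9 CPM in SS and 56.6 and 50.0 CPM in SS+NAC. In all 3 genes the order was the same, both SS libraries above control and both SS+NAC libraries below it. Against control, the log2 fold change of TOMM5 was 0.45 (SE 0.10, adjusted p = 0.00501). That of TOMM6 was 0.42 (SE 0.11, adjusted p = 0.0138) and that of TOMM7 0.36 (SE 0.098, adjusted p = 0.0139). These are short transcripts, of 731, 834 and 757 bases of effective length, and with the length offset the 3 values against control turned to -0.05, -0.06 and -0.14, none called. Against SS+NAC the log2 fold changes were 0.62 for TOMM5 (SE 0.10, adjusted p = 0.00097), 0.64 for TOMM6 (SE 0.11, adjusted p = 0.00159) and 0.63 for TOMM7 (SE 0.098, adjusted p = 0.000831). With the offset they were 0.09, 0.15 and 0.11, not called. TOMM6 was called against SS+NAC with the offset when SS+NAC replicate 1 was left out (0.24). All 3 calls against control were lost without SS replicate 2 (0.26 to 0.31), that of TOMM6 also without control replicate 1 (0.37) and that of TOMM7 without control replicate 2 (0.29). Each annotated 50-base word of TOMM6 (100%) also lies in an overlapping gene model on the same strand, as do 62.9% of those of TOMM5 in 2 such models (47.1% and 29.1%). Whether the authors' transcripts held these models is not stated. The expected counts of TOMM6 were whole numbers in all 6 libraries (2986 to 5577), so no division of its reads shows in them. Those of TOMM5 lay close to whole numbers (1837.97 and 2352.01 in control).

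The upstream window of TOMM7 held a motif of NRF1, a regulator of many nuclear genes for mitochondrial proteins, in 2 places. The stretch is shown because TOMM7 moved with the other small subunits and because few of its bases (3) lie in an annotated exon. It covers chr7:22822850-22822988 of GRCh38.p14 on the minus strand and comes from the RefSeq promoter windows, which reach from 250 bases before to 50 bases after each gene start. Capitals mark the matches to GCGCNTGCG, read on both strands, at positions -124 and -14 from the start.
TOMM7: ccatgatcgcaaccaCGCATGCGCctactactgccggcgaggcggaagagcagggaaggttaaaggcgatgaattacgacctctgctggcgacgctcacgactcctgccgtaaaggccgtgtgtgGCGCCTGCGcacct

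Of the receptors, which bind precursors at the outer membrane, none was called against control by edgeR. Among all tested genes 18.6% were called higher and 21.4% lower. On the TPM scale limma called TOMM20 and TOMM70 lower, as it did 37.4% of all tested genes. TOMM22, the central receptor that also joins the channel units, stood at 231 and 268 CPM in control, 262 and 327 CPM in SS and 241 and 196 CPM in SS+NAC. Its control and SS libraries overlapped, and both SS libraries lay above both SS+NAC libraries. The log2 fold change was 0.24 against control (adjusted p = 0.154) and 0.43 against SS+NAC (SE 0.13, adjusted p = 0.0185), and -0.10 and 0.11 with the length offset, not called. TOMM22 was called against control without SS+NAC replicate 1 (0.24), and its call against SS+NAC was lost without SS replicate 2 (0.26) or SS+NAC replicate 2 (0.29). TOMM20, the receptor for presequences, and TOMM70, the receptor for carrier precursors, were slightly lower in both SS libraries than in each other library. Their log2 fold changes against control were -0.06 and -0.14, and 0.04 and 0.09 with the length offset, none called by edgeR; on the TPM scale they were -0.33 and -0.41, both called lower by limma. TOMM34, a cytosolic co-chaperone named with this family, had a log2 fold change of 0.22 against control (adjusted p = 0.0972) and 0.28 against SS+NAC (adjusted p = 0.0444). TOMM34 was called against control with a minimum of 10 counts (0.25), with the compared libraries only (0.22) and without SS+NAC replicate 1 or 2 (0.22 each). Against SS+NAC it was not called with no filter (0.27), with the replicate block (0.28), nor without control replicate 1 (0.28), SS replicate 1 (0.34), SS replicate 2 (0.21) or SS+NAC replicate 2 (0.16).

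The small TIM chaperones, which carry hydrophobic precursors across the intermembrane space, differed among themselves: 3 of 6 were called higher by edgeR in SS than in control, and against SS+NAC 5 were called higher and 1 lower. Of all genes of the shortest quartile 55.0% and 54.5% were called higher in these comparisons, and of all tested genes 18.6% and 19.6% higher and 21.4% and 23.1% lower. TIMM13 and TIMM10B belong to the next quartile, where 14.5% and 18.2% were called higher. TIMM8B (26521) stood at 23.0 and 25.5 CPM in control, 33.1 and 44.0 CPM in SS and 25.1 and 22.0 CPM in SS+NAC. Both SS libraries lay above the other 4, with SS replicate 2 well above SS replicate 1. Its log2 fold change, the largest of the members in both comparisons by counts, was 0.67 against control (SE 0.13, adjusted p = 0.00296). It was 0.71 against SS+NAC (SE 0.13, adjusted p = 0.00183). Both calls held without each library in turn, the value against control falling to 0.44 without SS replicate 2. With length offset the values were 0.18 and 0.20, not called. TIMM8B lies at chr11:112084800-112086798 (GRCh38, minus strand), and 39.1% of its 50-base words also occur in NKAPD1, which overlaps it on the opposite strand. TIMM8A (1678), whose loss causes a deafness and dystonia syndrome, stood at 24.1 CPM in both control libraries, 25.8 and 25.7 CPM in SS and 20.5 and 20.7 CPM in SS+NAC. The groups did not overlap, and SS+NAC was the lowest. Against control its log2 fold change was 0.09 (SE 0.082, adjusted p = 0.392). Relative to SS+NAC it was 0.32 (SE 0.082, adjusted p = 0.00991), lost without SS replicate 2 (0.32), and -0.05 with the length offset. With the offset TIMM8A was at -0.28 against control (adjusted p = 0.061), and called lower without SS+NAC replicate 1 (-0.28) or SS+NAC replicate 2 (-0.29).

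TIMM9 (26520) and TIMM10 (26519) form a hexamer that shields carrier precursors. TIMM9 stood at 40.8 and 36.1 CPM in control, 48.6 and 49.1 CPM in SS and 39.9 and 42.5 CPM in SS+NAC. TIMM10 stood at 40.2 and 38.5 CPM in control, 48.0 and 61.2 CPM in SS and 42.7 and 35.1 CPM in SS+NAC. In both genes the SS libraries lay above the other 4, and control and SS+NAC overlapped. TIMM9 had a log2 fold change of 0.35 against control (SE 0.084, adjusted p = 0.00809). Against SS+NAC that of TIMM9 was 0.24 (SE 0.083, adjusted p = 0.0355). TIMM10 had a log2 fold change of 0.47 against control (SE 0.12, adjusted p = 0.0115). Against SS+NAC that of TIMM10 was 0.49 (SE 0.12, adjusted p = 0.00888). With the length offset TIMM9 turned to -0.05 and -0.15, and TIMM10, with an effective length of 657 bases, to -0.06 and -0.08, none called. The call of TIMM9 against control was lost without control replicate 2 (0.29) or SS replicate 2 (0.34). Its call against SS+NAC was lost with the replicate block (0.24), by DESeq2 (0.27), and without control replicate 1 (0.24), SS replicate 1 (0.25), SS replicate 2 (0.24) or SS+NAC replicate 1 (0.20). Both calls of TIMM10 were lost without SS replicate 2 (0.29 and 0.30). TIMM9 overlaps KIAA0586 and TOMM20L on the opposite strand, which share 10.2% and 7.42% of its 50-base words.

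TIMM13 (26517), the partner of TIMM8A, and TIMM10B (26515), which binds the TIM22 complex, differed in opposite directions between SS and SS+NAC. TIMM13 stood at 86.3 and 83.7 CPM in control, 94.8 and 121 CPM in SS and 80.4 and 61.3 CPM in SS+NAC. The 3 groups did not overlap, SS being the highest and SS+NAC the lowest. Its log2 fold change was 0.35 against control (SE 0.13, adjusted p = 0.0621), and called by DESeq2 (0.35), with a minimum of 10 counts (0.38), with the compared libraries only (0.34), and without SS replicate 1 (0.51) or SS+NAC replicate 1 or 2 (0.34 each). Against SS+NAC TIMM13 was at 0.61 (SE 0.13, adjusted p = 0.0047), not called without SS replicate 2 (0.42). After the offset for length it was still called there, at 0.45 (SE 0.13, adjusted p = 0.0405). That call was lost without control replicate 1 (0.45), control replicate 2 (0.45), SS replicate 2 (0.29) or SS+NAC replicate 2 (0.27). TIMM10B stood at 24.4 and 27.0 CPM in control, 23.2 and 24.8 CPM in SS and 30.7 and 29.4 CPM in SS+NAC. SS+NAC was the highest group, and control and SS overlapped. The log2 fold change of TIMM10B against SS+NAC was -0.33 (SE 0.088, adjusted p = 0.0127), and -0.31 with the length offset (SE 0.085, adjusted p = 0.035). The first was lost by DESeq2 (-0.30) and without SS replicate 1 (-0.28). The second was lost without control replicate 1 or 2 (-0.31 each), SS replicate 1 (-0.27) or SS replicate 2 (-0.36). TIMM13 shares 13.5% of its 50-base words with TMPRSS9 and 10.6% with LMNB2, and TIMM10B 14.6% with an overlapping gene model on its strand. Of the TIM22 translocase, which inserts carriers into the inner membrane, TIMM22 had log2 fold changes of 0.26 against control (adjusted p = 0.0555) and 0.39 against SS+NAC (adjusted p = 0.00767). TIMM22 was called against control with a minimum of 10 counts (0.29), with the compared libraries only (0.25) and without SS replicate 1 (0.35) or either SS+NAC library (0.25 each), and lost its call against SS+NAC without SS replicate 2 (0.30). After the offset TIMM22 was called against SS+NAC only without SS+NAC replicate 1 (0.33). Its partner TIMM29 was called in neither (0.20 and 0.30, or -0.13 and -0.01 with the offset), but in both without SS replicate 1 (0.40 and 0.50).

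In the TIM23 translocase, the inner membrane channel for presequence proteins, 4 of 6 members were called higher in SS than in control, and against SS+NAC 5 were called higher and 1 lower. Among all tested genes the shares called higher were 18.6% and 19.6%, those called lower 21.4% and 23.1%, and those called higher in the shortest quartile 55.0% and 54.5%. TIMM23B belongs to the next quartile, where 14.5% and 18.2% were called higher. TIMM23 (100287932) and TIMM23B (100652748) are related copies on chromosome 10, near-identical in all but the last coding exon. They lie at chr10:45972449-46003734 and chr10:49942033-49974850 (GRCh38, plus strand). Their 6 coding exons of equal length differ at 10 of 514 bases, while the last coding exon, of 113 bases in TIMM23 and 50 in TIMM23B, differs at 42 of the 50 bases compared. Coding exon 3 is shown because it holds 3 of these differences, in capitals; it covers chr10:45982523-45982616 in TIMM23 and chr10:49952126-49952219 in TIMM23B, both on the plus strand.
TIMM23: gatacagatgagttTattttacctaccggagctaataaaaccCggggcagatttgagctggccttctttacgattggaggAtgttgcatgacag
TIMM23B: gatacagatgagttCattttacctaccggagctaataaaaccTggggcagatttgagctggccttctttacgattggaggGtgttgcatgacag

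TIMM23 stood at 115 and 118 CPM in control, 145 and 169 CPM in SS and 107 and 102 CPM in SS+NAC. The 3 groups did not overlap, with SS highest and SS+NAC lowest. In SS its log2 fold change was 0.43 against control (SE 0.085, adjusted p = 0.00299). Against SS+NAC it was 0.59 (SE 0.085, adjusted p = 0.000621). Both calls held without each library in turn. With length offset the values were 0.05 and 0.22 (adjusted p = 0.693 and 0.0595), and the latter was called without SS+NAC replicate 1 (0.23). TIMM23B stood at 25.1 and 25.9 CPM in control, 26.2 and 21.0 CPM in SS and 32.7 and 31.4 CPM in SS+NAC. SS+NAC was the highest group, and the SS libraries lay on either side of control. The log2 fold change of TIMM23B against SS+NAC was -0.44 (SE 0.11, adjusted p = 0.00709), lost without SS replicate 2 (-0.29). With the length offset it was -0.53 (SE 0.11, adjusted p = 0.0112), also lost without SS replicate 2 (-0.37). Against control that of SS was -0.11 (SE 0.11, adjusted p = 0.449), and that of SS+NAC 0.33 (SE 0.11, adjusted p = 0.162). The 2 genes share 16.97% of the 50-base words of TIMM23 and 14.8% of those of TIMM23B, so the division of reads between them is uncertain. Their sum was 139.7 and 144 CPM in control, 171 and 189.6 CPM in SS and 139.5 and 133 CPM in SS+NAC. TIMM23B made up 18.0% of it in both control libraries, 15.3% and 11.1% in SS and 23.5% in both SS+NAC libraries.

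TIMM17A (10440) and TIMM17B (10245) are alternative subunits of the same channel. TIMM17A stood at 71.6 and 67.7 CPM in control, 80.3 and 85.6 CPM in SS and 62.2 and 60.8 CPM in SS+NAC. TIMM17B stood at 13.1 and 13.0 CPM in control, 16.7 and 22.7 CPM in SS and 13.7 and 13.6 CPM in SS+NAC. In both genes the SS libraries were the highest, TIMM17A being lowest in SS+NAC and TIMM17B in control. TIMM17A had a log2 fold change of 0.25 against control (SE 0.074, adjusted p = 0.0202). Against SS+NAC TIMM17A was at 0.43 (SE 0.074, adjusted p = 0.0013). TIMM17B was at 0.59 against control (SE 0.14, adjusted p = 0.00681). Against SS+NAC TIMM17B was at 0.53 (SE 0.14, adjusted p = 0.0096). After the offset for length TIMM17A was at -0.01 and 0.19 and TIMM17B at 0.14 and 0.08, none called. The call of TIMM17A against control was lost with the replicate block (0.25) and without control replicate 1 (0.29), control replicate 2 (0.24) or SS replicate 2 (0.20). TIMM17B lost both calls without SS replicate 2 (0.35 and 0.30). TIMM50, which receives presequences from the TOM complex, was called against control (0.35, adjusted p = 0.031) and against SS+NAC (0.37, adjusted p = 0.0207). Its first call was lost without control replicate 1 (0.30), control replicate 2 (0.42) or SS replicate 2 (0.20), and its second without SS replicate 2 or SS+NAC replicate 2 (0.23 each). TIMM21, which links the TIM23 and TOM complexes, was called against SS+NAC (0.28, adjusted p = 0.0157) and not against control (0.17, adjusted p = 0.119); the call was lost without SS replicate 2 (0.26) or SS+NAC replicate 1 (0.24). With the offset TIMM21 was at -0.14 against control and -0.01 against SS+NAC. TIMM50 was then at 0.13 and 0.18, not called, and called against SS+NAC without SS+NAC replicate 1 (0.32).

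In the import motor, 3 of 6 members were called higher in SS than in control, and the same 3, GRPEL1, DNAJC19 and PAM16, higher than in SS+NAC, against 18.6% and 19.6% of all tested genes and 55.0% and 54.5% of the shortest quartile. Of the 6, only DNAJC19 and PAM16 belong to that quartile. In the next quartile, with GRPEL1 and TIMM44, 14.5% and 18.2% of all genes were called higher. In the quartile after it, with HSPA9 and GRPEL2, the shares were 3.65% and 4.62%. GRPEL1 (80273), the nucleotide exchange factor that releases ADP from HSPA9, stood at 58.1 and 57.1 CPM in control, 69.2 and 72.7 CPM in SS and 56.0 and 50.6 CPM in SS+NAC. The groups did not overlap, SS being the highest. Its log2 fold change was 0.30 against control (SE 0.079, adjusted p = 0.0118). It was 0.41 against SS+NAC (SE 0.078, adjusted p = 0.00217). With an effective length of 2818 bases, close to the median of all genes, GRPEL1 kept these values with the length offset, 0.29 (SE 0.075, adjusted p = 0.0398) and 0.42 (SE 0.074, adjusted p = 0.0067). Without control replicate 1 (0.31), control replicate 2 (0.32) or SS replicate 2 (0.26) it was not called against control. With the offset it was not called against control without control replicate 1 (0.30), control replicate 2 (0.28), SS replicate 1 (0.32) or SS replicate 2 (0.25), nor against SS+NAC without SS replicate 2 (0.38). On the TPM scale its log2 fold changes were 0.02 and 0.08, or 0.22 and 0.34 above the all-gene median. GRPEL1 lies at chr4:7058906-7068197 (GRCh38, minus strand) and shares none of its 50-base words with another gene.

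GRPEL2 (134266), the second exchange factor, stood at 25.0 and 23.3 CPM in control, 29.6 and 24.5 CPM in SS and 30.2 and 32.6 CPM in SS+NAC. SS+NAC was the highest group, and the SS libraries overlapped control. In SS its log2 fold change was 0.17 against control (SE 0.11, adjusted p = 0.241), and -0.21 against SS+NAC (SE 0.10, adjusted p = 0.118), called there without SS replicate 1 (-0.36). For SS+NAC against control GRPEL2 was at 0.38 (SE 0.10, adjusted p = 0.106), called without SS+NAC replicate 1 (0.43). With an effective length of 4150 bases it was called higher in SS than in control with the length offset, at 0.36 (SE 0.098, adjusted p = 0.0482). On the TPM scale GRPEL2 was at -0.11 against control and -0.52 against SS+NAC, where limma called it lower, or 0.08 and -0.25 relative to the all-gene median. Its call with the offset was lost without control replicate 1 (0.40), control replicate 2 (0.31), SS replicate 1 (0.23) or SS replicate 2 (0.47). Its upstream window held 3 matches to the ETS motif CCGGAAG, the core bound by the mitochondrial gene regulator GABP, and it is shown because no other member had as many of this motif. The stretch covers chr5:149345337-149345454 of GRCh38.p14 on the plus strand, from the RefSeq windows, with the matches in capitals and 25 of its bases in annotated exons.
GRPEL2: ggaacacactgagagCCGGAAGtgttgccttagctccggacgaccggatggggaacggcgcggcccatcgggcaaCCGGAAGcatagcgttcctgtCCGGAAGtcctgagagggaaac

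DNAJC19 (131118), a J-domain partner of the motor, stood at 18.8 and 16.4 CPM in control, 23.2 and 24.8 CPM in SS and 14.99 and 17.5 CPM in SS+NAC. Both SS libraries lay above the other 4, among which the groups overlapped. Its log2 fold change was 0.45 against control (SE 0.11, adjusted p = 0.00865). Relative to SS+NAC it was 0.56 (SE 0.11, adjusted p = 0.00248). With length offset the values were 0.14 and 0.26, not called, the latter being called without SS+NAC replicate 2 (0.39). The call against control was lost without control replicate 2 (0.38) or SS replicate 2 (0.40). PAM16, a J-like protein that regulates the motor, was the shortest member tested, at 588 bases. It stood at 17.5 and 18.7 CPM in control, 20.6 and 31.7 CPM in SS and 19.8 and 15.9 CPM in SS+NAC, SS replicate 2 being far above all others. In SS its log2 fold change was 0.53 against control (SE 0.18, adjusted p = 0.0384). Without SS replicate 2 it was 0.18 and not called, nor was it with no filter (0.52) or without control replicate 1 (0.48) or control replicate 2 (0.60). Against SS+NAC PAM16 was at 0.55 (SE 0.18, adjusted p = 0.0286), lost without SS replicate 2 (0.21) or SS+NAC replicate 2 (0.39). With the offset PAM16 was at -0.03 and -0.05. Its counts may be uncertain, since 31.7% of its 50-base words also belong to the read-through gene CORO7-PAM16. No division of reads shows in its expected counts in control (315 and 414) or SS (473 and 693), which were whole numbers. HSPA9, the motor chaperone itself, ranged from 557 to 626 CPM over the 6 libraries, with log2 fold changes of 0.05 in both comparisons (adjusted p = 0.694 and 0.669) and 0.16 in both with the offset. HSPA9 was called higher than in SS+NAC with the offset when SS+NAC replicate 1 was left out (0.25), while on the TPM scale limma called it lower in both comparisons (-0.23 and -0.28). TIMM44, which tethers HSPA9 to the channel, was called in neither comparison (0.19 and 0.22), but against SS+NAC without SS+NAC replicate 1 (0.36).

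The matrix processing peptidase has a catalytic subunit, PMPCB, and a substrate-binding subunit, PMPCA. PMPCA (23203) stood at 72.9 and 77.8 CPM in control, 86.0 and 100.4 CPM in SS and 77.4 and 72.5 CPM in SS+NAC. Both SS libraries lay above the other 4. Its log2 fold change was 0.31 against control (SE 0.089, adjusted p = 0.0194), lost without control replicate 1 (0.26) or SS replicate 2 (0.19). Against SS+NAC it was 0.31 (SE 0.088, adjusted p = 0.0157), lost without SS replicate 2 (0.20). With the length offset PMPCA was at 0.16 and 0.19, not called. PMPCB was at 0.20 against control (adjusted p = 0.0586) and 0.12 against SS+NAC (adjusted p = 0.24). PMPCB was called against control with a minimum of 10 counts (0.23), with the compared libraries only (0.20) and without SS+NAC replicate 1 or 2 (0.20 each), and 22.8% of its 50-base words also occur in DNAJC2 on the opposite strand. CHCHD4 (131474), the oxidoreductase of the intermembrane space, stood at 23.5 and 27.0 CPM in control, 28.6 and 30.0 CPM in SS and 23.4 and 23.1 CPM in SS+NAC. The groups did not overlap, SS being the highest. CHCHD4 was at 0.21 against control (SE 0.091, adjusted p = 0.0869) and 0.33 against SS+NAC (SE 0.091, adjusted p = 0.0133). The latter call was lost without SS replicate 2 (0.30), and with the length offset the values were -0.10 and 0.04.

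Upstream windows were available for 30 of the 33 members, TIMM8B, GRPEL1 and TOMM5 having none. The NRF1 motif GCGCNTGCG was found on either strand in 10 of the 30 (33.3%), and in 9.01% of all windows and 16.1% of those of tested genes. The ETS motif CCGGAAG was found in 13 (43.3%), against 12.2% and 21.3%. GRPEL2, TIMM29, TOMM20 and TOMM34 held both. The YY1 motif AAGATGGCG was found in 3 members (PMPCA, TIMM50 and TOMM40L; 10.0%), against 2.14% of all windows and 4.42% of those of tested genes. The antioxidant response element TGACNNNGC was found in 5 members (16.7%), PAM16, TIMM10B, TIMM13, TIMM17B and TIMM21, against 16.1% of all windows and 2068 of the 10885 windows of tested genes. The C/EBP-ATF element TGATGNAAT was found in 1 (3.33%), PMPCB, against 1.22% and 0.74%. A match describes the letters of the window and says nothing about binding.

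Other genes of protein import and its clients were compared as lists, to be read beside the 18.6% of all tested genes called higher in SS than in control, the 21.4% called lower and their median of 0.003. In the shortest quartile of all transcripts 55.0% were called higher, with a median of 0.36. Of 30 other import and sorting genes, 15 of them in that quartile, 17 were called higher in SS than in control and 2 lower, with a median log2 fold change of 0.33. The 4 called with the largest absolute change were ROMO1, a small inner membrane protein (0.67), DNLZ, an escort of HSPA9 (0.59), MTX1, an outer membrane assembly protein (0.57), and IMMP2L, an inner membrane peptidase (0.50). Against SS+NAC 19 were called higher and 2 lower, where 19.6% and 23.1% of all tested genes were. After the offset for length 3 were called higher than in control and 0 lower, against 4.26% and 4.98% of all tested genes. Of the MICOS complex, which shapes the inner membrane, 7 of 10 symbols were in the table and 4 in the shortest quartile, 4 being called higher and 1 lower than in control, with a median of 0.43. They included C19orf70 (0.63), CHCHD6 (0.51), APOO (0.46) and MINOS1 (0.43), and with the offset 1 was called. Of 18 small twin-CX9C proteins, typical clients of CHCHD4, 17 were called higher in SS than in control and 0 lower. By edgeR all 18 of them had an unadjusted p under 0.05 (6829 of all 14005 genes had) and were above 0, the median being 0.54. The 4 with the largest change were NDUFS5 (0.71), COA6 (0.66), COX6B1 (0.62) and NDUFB7 (0.61), and 17 of the 18 belong to the shortest quartile of transcripts. With the offset 1 was called higher and the median was 0.04, against 0.009 for all tested genes. In SS+NAC against control edgeR called 0 genes of these lists, against 1.36% of all tested genes higher and 0.657% lower, with 1, 1 and 2 of them at an unadjusted p under 0.05, as had 2256 of the 14005.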

How the data were processed

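RNA of 6 KHM-5M libraries (3 groups of 2) was read as single-end 50-base reads. Per the submitters' processing notes, the authors named HISAT2 2.0.4, Bowtie2 2.2.5 and RSEM 1.2.12. The deposited table gives, per library, expected counts (expected_counts), TPM and FPKM, all made by the authors with RSEM. Their 9 comparison columns and 9 group-mean columns were not used. Expected counts were rounded and fitted over all 6 libraries with edgeR 4.0.16 (R 4.3.3): filterByExpr, TMM, quasi-likelihood F test on group, Benjamini-Hochberg over 14005 genes, with genes called where the adjusted p was 0.05 or less. The biological coefficient of variation was 6.74%. CPM values use the TMM library sizes. Effective length came from counts and FPKM (libraries with an FPKM of at least 0.1); the length offset is a lowess curve (span 0.3) of each library's log2 values on log2 length. Alternatives were DESeq2 1.42.0 (size factors, Wald test), other filters, a replicate block, the compared libraries only, Bonferroni, leaving out each library, and limma 3.58.1 on log2(TPM + 1). The procedure was tested on simulated data. Figures were drawn with matplotlib 3.10.9.

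Members and lists were chosen with earlier results of these data known, so no list was tested; their counts and medians with all 6 libraries are given beside values for all tested genes. Full statistics are given for the 12 members with the lowest p in SS against control, members called lower there, called in SS+NAC against control or called with the length offset, and 5 paralogue pairs, with at most 4 called genes per other list. Gene positions and 50-base words are from GENCODE release 29 on GRCh38; the transcripts used by the authors were not named. Upstream windows are from RefSeq (GRCh38.p14).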

Additional observations from a re-analysis of the deposited data

How the results depend on the processing

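DESeq2 size factors, other filters and fitting the compared libraries only left the counts of called members within 1.5 times the reported ones. The length offset did not: genes called were 1294 (SS against control) and 2015 (SS against SS+NAC), members called higher 2 and 2, and median log2 fold changes 0.024 and 0.095 (all tested genes 0.009 and 0.006). With the offset and the replicate block together, genes called were 848 and 1347, members called higher 0 and 1, members lower against SS+NAC 1, and medians 0.024 and 0.095. The replicate block alone called 13 members higher than in control, 20 higher and 2 lower than in SS+NAC, and 0 in SS+NAC against control. Members called higher than in control that reversed, with the offset and with the offset and block, were TIMM10 (-0.055, -0.054), TIMM17A (-0.011, -0.011), PAM16 (-0.033, -0.037), TIMM9 (-0.049, -0.050), TOMM5 (-0.052, -0.052), TOMM6 (-0.057, -0.058) and TOMM7 (-0.135, -0.133). Those called against SS+NAC that reversed were TIMM10 (-0.075, -0.074), TIMM8A (-0.053, -0.053), PAM16 (-0.052, -0.062), TIMM21 (-0.008, -0.007) and TIMM9 (-0.150, -0.152). Bonferroni adjustment, which the study's methods name for their limit of 0.05, called 220, 191 and 40 genes in SS against control, SS against SS+NAC and SS+NAC against control. It called 0 members higher and 0 lower in each, which for the former comparisons follows from its stricter limit. The DESeq2 Wald test called 1 member lower than in SS+NAC. For the other changes the cause was not tested.

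Leaving out each library in turn, the ranges were as follows. For SS against control, 3118 to 6579 genes were called, 2 to 20 members higher and 0 lower, with medians of 0.176 to 0.349. For SS against SS+NAC, 3250 to 6339 genes were called, 8 to 22 members higher and 1 to 2 lower, with medians of 0.262 to 0.463. For SS+NAC against control, 98 to 1086 genes were called, 0 to 1 members higher and 0 to 3 lower, with medians of -0.169 to -0.022. Where a group kept 1 library, that library was assumed to vary like the other groups. For the fits with the length offset that follow, shares over all tested genes are not given, so the member counts have no yardstick. With the length offset, members called higher ranged from 0 to 2 against control and from 0 to 8 against SS+NAC, and members called lower from 0 to 1 and from 0 to 2; for SS+NAC against control 0 to 1 were called higher and 0 to 5 lower.

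Chosen after seeing the data, limma on log2(TPM + 1) called 2 members higher and 6 lower in SS against control (median -0.013), where 5.08% and 37.4% of all tested genes were called (median -0.195). In SS against SS+NAC it called 5 higher and 6 lower (median 0.032), against 4.46% and 46.3% of all tested genes (median -0.266), and 140 genes in SS+NAC against control. Also chosen after seeing the data, pairing the libraries with the SS+NAC numbers swapped called 1475 genes in SS+NAC against control, with 2 members higher and 5 lower. The labels do not state a pairing. Replicate differences correlated over genes at 0.113 (control and SS), -0.105 (control and SS+NAC) and -0.175 (SS and SS+NAC). TOMM20L, at 1 to 5 expected counts a library, could not be tested at this depth.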
